A study of Mus musculus with 7 samples.

Results

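The 10 genes described here are textbook transcriptional targets of the tumour suppressor p53: Cdkn1a, Ccng1, Mdm2, Phlda3, Bax, Bbc3, Trp53inp1, Zmat3, Sesn2 and Gdf15. They were taken by symbol as 10 of the 47643 gene rows of the expression table, by a rule that uses no expression value, although the set was proposed with earlier results of these data known. RNA was measured in 7 subcutaneous flank tumours of the genotype sgPrkci/Prkcz, grown from cells the labels name MTOs in C57BL/6 mice, so both groups carried the edit of the atypical protein kinase C genes. The cells were injected in 30% Matrigel when the mice were 7 weeks old. The labels give an age of 13 weeks, read here as that of the mice. From day 15 the mice were given vehicle (3 tumours, replicates 14, 16 and 33) or 0.0375 mg/kg PEGPH20 (4 tumours, replicates 11, 12, 19 and 37), 2 times a week for 3 weeks. PEGPH20 is a pegylated hyaluronidase, an enzyme that digests the matrix polysaccharide hyaluronan.

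p53, encoded by Trp53, is a transcription factor that is held at low protein levels by Mdm2 and is stabilised by DNA damage and other stress. It then raises transcription of genes that stop the cell cycle, start apoptosis, repair DNA, restrain growth signals and switch p53 off again. In colorectal cancer the gene is often mutated, and target genes can still be transcribed through other factors. Mouse organoid lines called MTOs that carry a Trp53 deletion have been described; the labels do not state the Trp53 status of these cells, while the host cells of the tumours come from C57BL/6 mice.

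Libraries, made with a 3′ mRNA kit, held 4204388 to 4304108 reads with vehicle and 4582238 to 6703775 with PEGPH20, so depth differed between the groups without overlap. Values are normalised read counts, that is reads divided by 1 size factor per library. All 8 epithelial markers, among them Epcam and Krt8, were detected in every tumour, with summed levels of 16812 to 20011 normalised read counts with vehicle and 15280 to 17958 with PEGPH20. Fibroblast markers (10 genes) summed to 22561 to 55723 with vehicle and 13859 to 29339 with PEGPH20. A pair of vehicle tumours stood apart in other tissue. The 8 keratinocyte markers were all detected in vehicle replicate 14, with a sum of 1324, against 40.9 to 88.5 in the other libraries, where 3 or 4 were detected. The 10 skeletal muscle markers summed to 8710 in vehicle replicate 16, to 2007 in PEGPH20 replicate 11 and to 143 to 649 elsewhere. These are bulk tumours, in which fewer cells of a type and less RNA per cell cannot be told apart. Each tumour gave 1 library.

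p53 binds a decamer, and a full response element is made of 2 decamers. RefSeq promoters (GRCm38, 250 bases before to 50 after each start) were found for 8 of the 10 genes, as 12 entries, since Bbc3, Gdf15 and Cdkn1a have more than 1 start. The p53 decamer consensus, which reads the same on both strands, was in 4 of the 12 entries, 1 each of Cdkn1a, Mdm2, Ccng1 and Bax. It was in 8.36% of all 32851 mouse promoter entries of this length. Windows of 60 bases around the matches are shown to place each match in its sequence, with each matching decamer in capitals, in the direction of the gene.
Cdkn1a (chr17:29090892-29090951, plus strand): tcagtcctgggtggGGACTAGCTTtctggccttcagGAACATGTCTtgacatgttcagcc
Mdm2 (chr10:117710910-117710969, minus strand): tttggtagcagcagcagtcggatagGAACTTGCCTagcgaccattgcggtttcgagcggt
Ccng1 (chr11:40755437-40755496, minus strand): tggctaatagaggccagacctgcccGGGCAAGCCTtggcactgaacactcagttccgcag
Bax (chr7:45467065-45467124, minus strand): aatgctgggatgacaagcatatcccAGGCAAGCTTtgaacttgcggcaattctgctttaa
In 1 entry of Cdkn1a the decamers began 73 and 51 bases upstream of its start, with 12 bases between them. Such a pairing (spacer of at most 13 bases) was found in 0.0731% of all promoter entries. Right after GAACATGTCT, the bases tgacatgttc depart from the consensus only at the first base, so they were not counted as a match. The other Cdkn1a entry, whose start lies further downstream, had no match. The single, unpaired decamers of Mdm2, Ccng1 and Bax began 186, 185 and 201 bases upstream. Bbc3, Phlda3, Sesn2 and Gdf15 had no match in these windows, which says only that the letters are not there. A match is a description of sequence, and binding was not measured.

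The comparison asks how these genes differed between tumours of PEGPH20-treated and vehicle-treated mice. No p53 target passed the test. With limma on log2(value + 1), 0 of the 10 genes had an adjusted p under 0.05, against 0 of 17132 tested genes (0%). At an unadjusted p under 0.05 there was 1 of 10, Gdf15, where 12.2% of all tested genes lay. On recovered reads, edgeR's test passed 0 of the 10 genes and 0% of 13079 in all. An unadjusted edgeR p under 0.05 was found for 1 of the 10, and for 1704 of the 13079. DESeq2 passed 0 of the 9 members to which it gave an adjusted p, where 0.626% of 10229 genes passed. Estimates were split evenly, 5 above and 5 below 0, against 54% above 0 over all tested genes, and their median was -0.02 against 0.03 on the log2 scale. With DESeq2 size factors 4 of 10 lay above 0, since Phlda3 turned, against 49.7% of all tested genes. The groups did not overlap in 1 of 10 genes, against 11.2% of all tested genes. These shares are near the background.

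**Figure D1:**
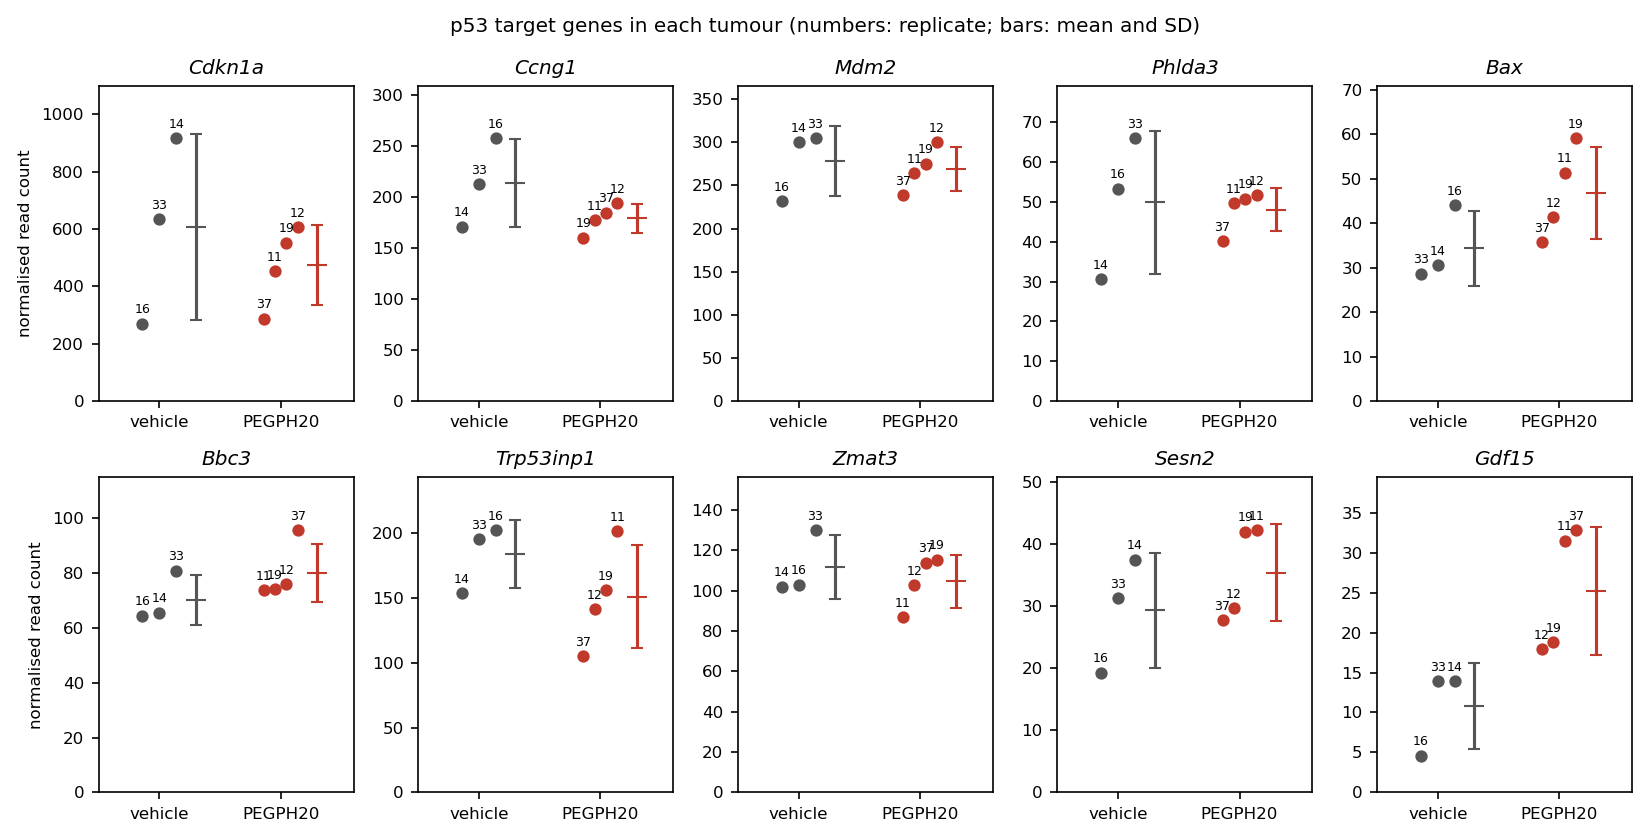
Normalised read count (vertical axes, from 0) of each of the 10 p53 targets in the 3 vehicle and 4 PEGPH20 tumours; points are tumours with their replicate number, bars are mean and SD. Only the Gdf15 panel shows no overlap, with 4.60 to 13.9 against 17.9 to 32.8, and Cdkn1a spans 269 to 916 among the vehicle tumours alone.

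Cdkn1a encodes p21, an inhibitor of cyclin-dependent kinases and the main arm of p53-dependent arrest (ENSMUSG00000023067, GRCm38 chromosome 17, 29090976 to 29100727, plus strand). It read 916, 269 and 634 normalised read counts in the vehicle tumours 14, 16 and 33. Among PEGPH20 tumours the values were 453 (replicate 11), 607 (12), 552 (19) and 287 (37). All PEGPH20 tumours lay within the vehicle range, and the vehicle tumours differed 3.40-fold among themselves. The means were 607 ± 324 (SD, n = 3) and 475 ± 141 (SD, n = 4), which gave a log2 difference of -0.24 ± 0.39 (SE; limma's adjusted p = 0.830). The 95% interval of the fold ran from 0.465 to 1.54. Its residual SD of 0.68 on the log2 scale was larger than in 96.5% of the 10984 genes with a mean of at least 20, whose median was 0.20. The highest value came from the tumour rich in keratinocyte transcripts and the lowest from the one rich in muscle transcripts. Without vehicle replicate 14 the log2 difference was 0.14, and without vehicle replicate 16 it was -0.74 (limma's adjusted p = 0.182). Leaving out vehicle replicate 33 gave -0.12, and leaving out PEGPH20 replicate 37 gave -0.01. The part of skin or muscle tissue in these values was not tested. Exons of Cdkn1a overlap 273 bases of AC167363.2 on the other strand. Whether counting used strand is not known here, which leaves the Cdkn1a reads uncertain to that extent.

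Ccng1 encodes cyclin G1, which guides a phosphatase to Mdm2 (chromosome 11, 40748552 to 40755311, minus strand). Its values were 171, 257 and 213 normalised read counts with vehicle and 177, 194, 160 and 185 with PEGPH20. Vehicle replicate 16, lowest for Cdkn1a, was highest here, and the groups overlapped. The log2 difference was -0.24 ± 0.14 (limma's adjusted p = 0.523), and -0.09 without vehicle replicate 16.

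Mdm2 encodes the ubiquitin ligase that degrades p53, so that its induction closes a feedback loop (chromosome 10, 117688875 to 117710758, minus strand). The vehicle tumours had 299.9, 232 and 305 and the PEGPH20 tumours 264, 300.4, 275 and 239, the narrowest spread of the 10 genes at 1.31-fold over all tumours. The means were 279 ± 40.8 and 270 ± 25.6, with a log2 difference of -0.04 ± 0.13 and limma's adjusted p = 0.920. Its 95% interval limits a difference to between 0.798 and 1.18 times the vehicle level. The sign turned without vehicle replicate 14 or 33 or PEGPH20 replicate 37 (0.017, 0.028 and 0.015).

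Phlda3 encodes a small protein that competes with the kinase Akt for membrane lipids and so represses it (chromosome 1, 135766119 to 135769136, plus strand). Vehicle tumours had 30.5, 53.3 and 65.9, and PEGPH20 tumours 49.7, 51.7, 50.8 and 40.1. The PEGPH20 tumours fell inside the wider vehicle range, and the log2 difference was 0.01 ± 0.25 (limma's adjusted p = 0.992). It was -0.30 without vehicle replicate 14, the lowest tumour.

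Bax and Bbc3 act in apoptosis: Bax permeabilises the mitochondrial outer membrane, and Bbc3, also called PUMA, frees it from its inhibitors. Bax (chromosome 7, 45461697 to 45466898, minus strand) had 30.5, 44.1 and 28.6 normalised read counts in vehicle tumours against 51.4, 41.3, 59.1 and 35.8 in PEGPH20 tumours. Vehicle replicate 16 lay within the PEGPH20 range and the other two vehicle tumours below it. The log2 difference was 0.44 ± 0.23, with a 95% interval of -0.08 to 0.95 and limma's adjusted p = 0.471. Bax shares 192 exonic bases with the gene model Gm45808 on the same strand, so its value is uncertain.

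Bbc3 (chromosome 7, 16308393 to 16318205, plus strand) had 65.4, 64.3 and 80.7 in vehicle tumours against 73.7, 75.8, 74.0 and 95.6 in PEGPH20 tumours. Vehicle replicate 33 exceeded 3 of the 4 PEGPH20 tumours, and PEGPH20 replicate 37 stood above all others. The log2 difference was 0.18 ± 0.15 (limma's adjusted p = 0.632), and 0.09 without PEGPH20 replicate 37.

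Trp53inp1 encodes a stress protein of apoptosis and autophagy, and Zmat3 an RNA-binding regulator of splicing. Trp53inp1 (chromosome 4, 11156431 to 11174379, plus strand) had 153, 202 and 195 in vehicle tumours against 201, 141, 156 and 105 in PEGPH20 tumours, with overlap. Its log2 difference was -0.31 ± 0.20 (limma's adjusted p = 0.550), and -0.15 without PEGPH20 replicate 37, the lowest tumour. Zmat3 (chromosome 3, 32334792 to 32366014, minus strand) had 102, 103 and 130 against 87.0, 103, 115 and 114 in the same order. Its range was narrow and shared by both groups, with a log2 difference of -0.09 ± 0.15, a 95% fold interval of 0.747 to 1.18 and limma's adjusted p = 0.828. The sign turned without vehicle replicate 33 (0.023).

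Sesn2 and Gdf15 answer to p53 and also to ATF4, the transcription factor of the amino acid and endoplasmic reticulum stress response. Sesn2, a leucine-binding inhibitor of the growth kinase complex mTORC1 (chromosome 4, 132492032 to 132510501, minus strand), had 37.5, 19.3 and 31.2 in vehicle tumours against 42.3, 29.6, 42.0 and 27.7 in PEGPH20 tumours. Only vehicle replicate 16 lay below the PEGPH20 tumours. The log2 difference was 0.29 ± 0.27 (limma's adjusted p = 0.679), and 0.02 without that tumour.

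Gdf15, a secreted cytokine of the TGF-beta family (ENSMUSG00000038508, chromosome 8, 70629393 to 70632456, minus strand), was the 1 gene of the 10 without overlap. It read 13.9, 4.60 and 13.9 normalised read counts with vehicle and 31.5, 17.9, 18.8 and 32.8 with PEGPH20. All 4 PEGPH20 tumours exceeded all vehicle tumours, as in 6.72% of all tested genes. The recovered reads were few, 16, 5 and 16 against 38, 26, 34 and 45, which limits precision. The means were 10.8 ± 5.38 and 25.3 ± 8.0, with a log2 difference of 1.24 ± 0.40, a 95% interval of 0.33 to 2.14, an unadjusted p = 0.0124 and limma's adjusted p = 0.343. The smallest value came from vehicle replicate 16, and without it the log2 difference was 0.76 (limma's adjusted p = 0.216). The highest pair, PEGPH20 replicates 37 and 11, were along with vehicle replicate 16 the 3 libraries with the highest muscle marker sums. The sum of replicate 37, 649, was close to that of vehicle replicate 33, 569, and far below 2007 and 8710 in replicates 11 and 16. Without those 3 the difference was 0.37 with 2 tumours left in each group. The part of muscle tissue in this difference was not tested.

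**Figure D2:**
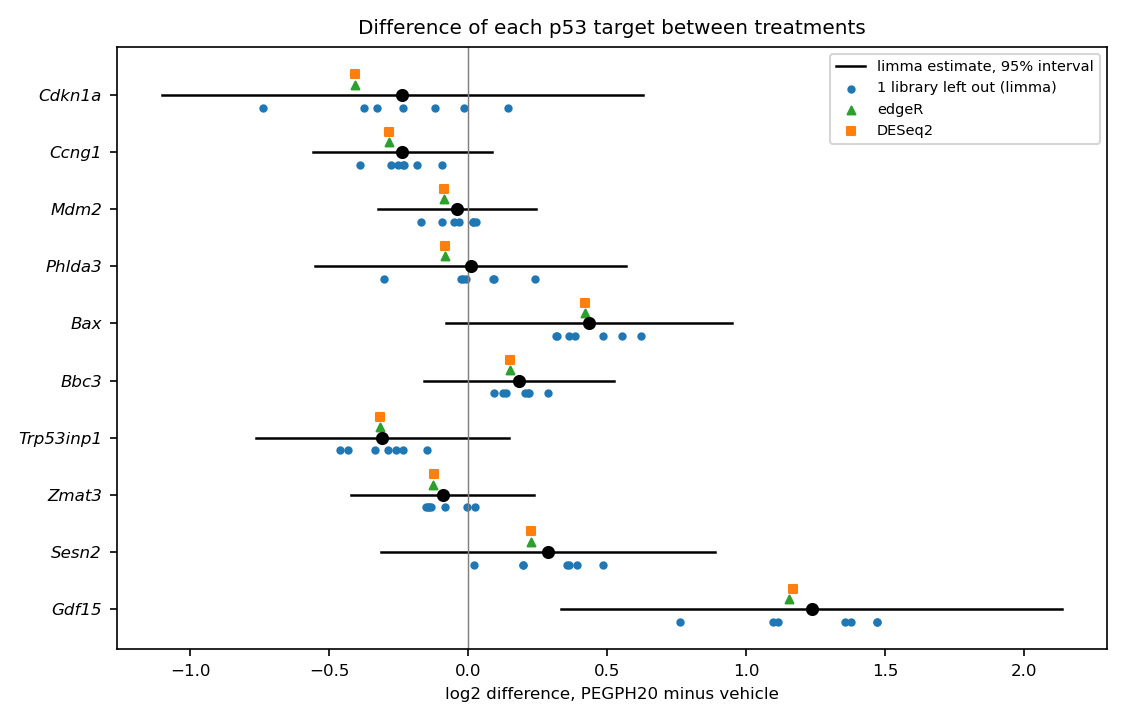
Log2 difference of PEGPH20 minus vehicle for each p53 target (horizontal axis), with limma's estimate and 95% interval in black, limma estimates with 1 library left out in blue, and edgeR and DESeq2 estimates in green and orange. Intervals of 9 genes include 0; that of Gdf15 runs from 0.33 to 2.14, before any adjustment for the number of genes tested, and Cdkn1a has blue points from -0.74 to 0.14.

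The 10 genes did not share 1 pattern over the tumours. Among their 45 pairs, Pearson correlations of log2(value + 1) over the 7 libraries ran from -0.90 (Ccng1 and Sesn2) to 0.94 (Cdkn1a and Mdm2), with a median of 0.04, and 24 pairs were above 0. The lowest, Ccng1 and Sesn2, was -0.56 over the 5 libraries left without vehicle replicate 16 and PEGPH20 replicate 19 (rho = -0.75 over 7). All points share library and scaling, so these are descriptions. Cdkn1a and Mdm2 had r = 0.94 and Spearman's rho = 0.89, and r = 0.74 over the 5 libraries left without vehicle replicate 16 and PEGPH20 replicate 37, the farthest from the Cdkn1a median. Vehicle replicate 16 was lowest for 5 genes (Cdkn1a, Mdm2, Bbc3, Sesn2 and Gdf15) and highest for 2 (Ccng1 and Trp53inp1). The genes whose pattern was most like that of Cdkn1a, out of 10262 named genes with a mean of at least 20, were Hilpda (r = 0.99), Epn2 (r = 0.98), Lcn2 (r = 0.98), Atp7a (r = 0.97) and Rab5a (r = 0.97), each over 7 libraries. Hilpda, for example, read 2320, 557 and 1333 normalised read counts with vehicle and 906, 1309, 1022 and 535 with PEGPH20.

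**Figure D3:**
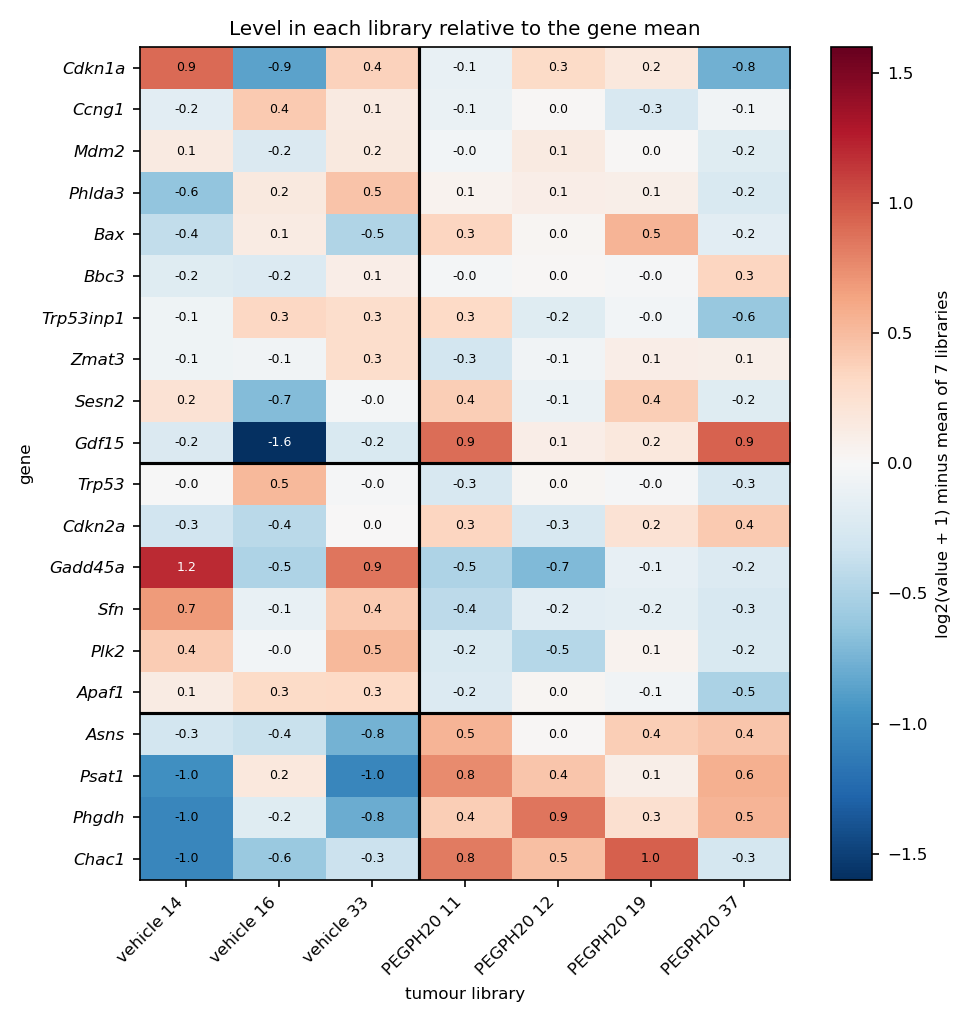
Colour and number give log2(value + 1) of a gene in each of the 7 tumour libraries (columns, vehicle left of the black line) minus its mean over all 7, for the 10 p53 targets, for Trp53, Cdkn2a and 4 further targets, and for 4 ATF4 response genes. Gdf15 is lowest and Trp53 highest in vehicle replicate 16, and Cdkn1a changes sign within both groups.

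Upstream of the targets, Trp53 itself (chromosome 11, 69580359 to 69591873, plus strand) read 22.7, 33.1 and 22.6 normalised read counts with vehicle and 19.1, 23.4, 22.6 and 18.97 with PEGPH20, from 23 to 41 reads per library. Vehicle replicate 16 was the highest and the rest overlapped; the log2 difference was -0.28 ± 0.22 (limma's adjusted p = 0.612). Reads at the 3′ end do not show whether coding exons are intact, and they come from tumour and host cells alike. Without vehicle replicate 16 the log2 difference was -0.11, and without the 3 libraries of highest muscle marker sum it was 0.026. Over the 7 libraries Trp53 had r = -0.23 with Cdkn1a (rho = 0.071), which turned to 0.62 without vehicle replicate 16 and PEGPH20 replicate 37, so the sign rests on that pair. With Gdf15 it had r = -0.97 (rho = -0.75), and -0.86 without the same pair.

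Of 9 regulators of p53, 0 passed the test and 2 (22.2%, against 12.2% of all tested genes) had an unadjusted p under 0.05, both higher with PEGPH20. Cdkn2a, whose ARF product inhibits Mdm2, read 709 ± 117 with vehicle and 961 ± 186 with PEGPH20, overlapping, with a log2 difference of 0.43 ± 0.17 and limma's adjusted p = 0.389. The difference was 0.13 at the lowest of 15 alternatives, and the value is of the whole gene, not of the ARF product alone. The other of these 2 regulators was Atm, the kinase that signals DNA breaks to p53, at 233 ± 34.8 and 292 ± 31.8 without overlap (log2 difference 0.33 ± 0.13, limma's adjusted p = 0.381). Mdm4, an inhibitor of p53 related to Mdm2, read 403 ± 23.4 and 389 ± 49.7, a log2 difference of -0.06 whose sign turned without PEGPH20 replicate 37 (0.0026). Ppm1d, a phosphatase and p53 target that switches p53 signalling off, read 94.4 ± 7.01 and 80.3 ± 9.19, with limma's adjusted p = 0.506.

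A wider list held 37 further p53 targets for arrest, feedback, apoptosis, DNA repair, metabolism and other functions. None of the 37 passed limma's test, 16 had estimates above and 21 below 0, and the median was -0.04 against 0.03 over all tested genes. At an unadjusted p under 0.05 there were 6 (16.2%, against 12.2% of all tested genes), of which 5 were lower with PEGPH20. The sixth, higher with PEGPH20, was the glutaminase gene Gls2, on 0 to 5 reads per library. Of 33 genes edgeR passed 0, with an unadjusted p under 0.05 for 5, where 1704 of all 13079 had one. DESeq2 passed 0 of 26, against 0.626% of 10229 in all. By function, 3 of the 5 arrest genes had an unadjusted p under 0.05, as did 1 of 10 apoptosis genes, 1 of 5 repair genes and 1 of 5 metabolic genes.

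The arrest genes Gadd45a, Sfn and Plk2 had lower means with PEGPH20. The other arrest genes of the list, Btg2 and Plk3, had log2 differences of 0.13 and 0.17, with overlap. Gadd45a, a growth arrest and repair factor, had 474, 146 and 375 in vehicle tumours against 147, 127, 189 and 177 in PEGPH20 tumours. Vehicle replicates 14 and 33 exceeded every PEGPH20 tumour while replicate 16 did not. The log2 difference was -0.90 ± 0.34 (limma's adjusted p = 0.374), -0.56 without vehicle replicate 14 and -1.41 without vehicle replicate 16; exons of E230016M11Rik lie opposite its own, so the value is uncertain. Sfn, the 14-3-3 sigma protein of epithelia, which keratinocytes also make, had 197, 112 and 164 in vehicle tumours against 91.1, 109, 109 and 102, without overlap. Its log2 difference was -0.58 ± 0.18 (limma's adjusted p = 0.337), and -0.40 without vehicle replicate 14, the keratinocyte-rich tumour. Plk2, a kinase of centriole duplication, read 165 ± 32.7 and 114 ± 16.8, a log2 difference of -0.51 ± 0.17. Gadd45a, Sfn and Plk2 were all high in vehicle replicates 14 and 33 relative to replicate 16, as Cdkn1a was.

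Among the other functions, Apaf1, the scaffold of the apoptosome, had 265, 298 and 301 in vehicle tumours against 208, 246, 233 and 169 in PEGPH20 tumours, without overlap. Its log2 difference was -0.44 ± 0.14 with limma's adjusted p = 0.333. The estimates above 0 with the smallest p, among genes with a mean of at least 10, were those of Pvt1, a long non-coding RNA (25.2 ± 6.79 and 37.7 ± 9.39), Pmaip1, the apoptosis activator NOXA (217 ± 12.7 and 264 ± 46.2), the ubiquitin ligase gene Rchy1 (175 ± 17.2 and 197 ± 10.8) and Rrm2b, a ribonucleotide reductase subunit (27.2 ± 0.998 and 33.7 ± 4.59). Limma's adjusted p was 0.436, 0.468, 0.512 and 0.541 in that order. Pvt1, Rchy1 and Rrm2b have exons that overlap other genes and are uncertain. All 4 overlapped between groups.

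**Figure D4:**
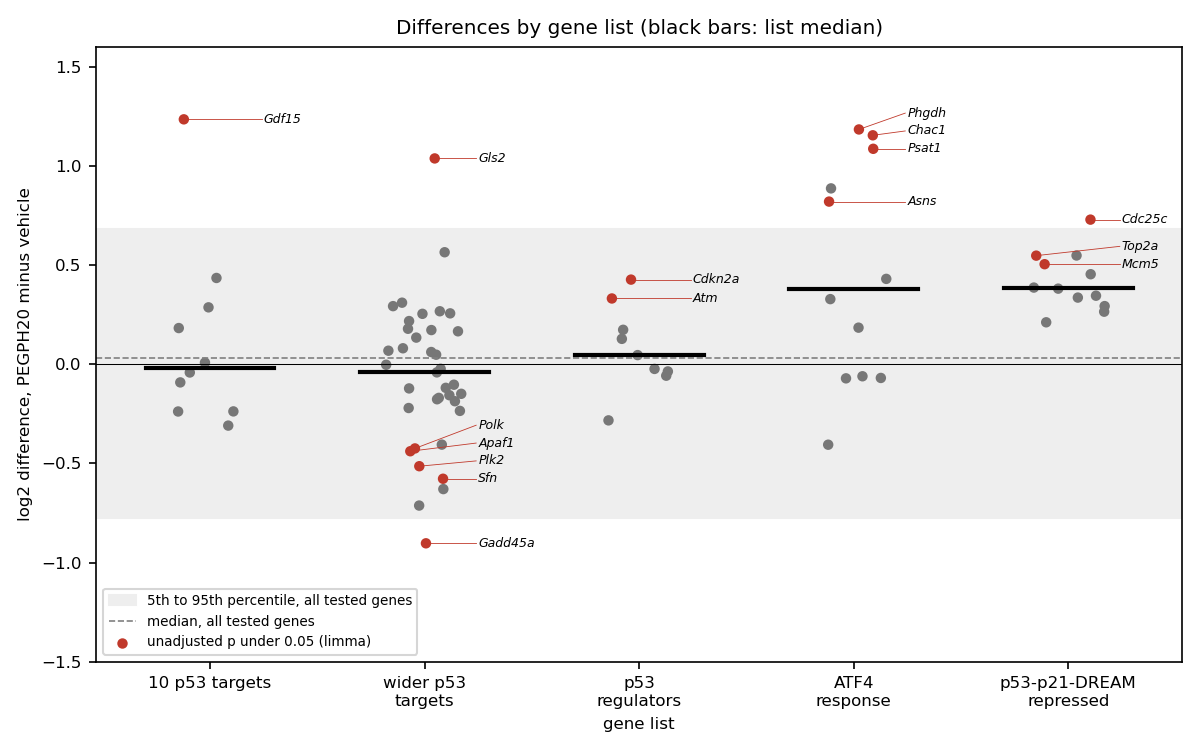
Log2 difference of PEGPH20 minus vehicle (vertical axis) for each gene of 5 lists (horizontal axis), with list medians as black bars, genes of unadjusted p under 0.05 in red, and the 5th to 95th percentile of all tested genes (-0.77 to 0.68) shaded. The 10 p53 targets and the 37 further targets centre near 0 (medians -0.02 and -0.04), while the ATF4 and DREAM lists have medians of 0.38.

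Because Gdf15 and Sesn2 are shared with the ATF4 response, 12 genes of that response were read beside them. None passed limma's test; 8 of 12 estimates were above 0 (54% of all tested genes), and 4 had an unadjusted p under 0.05 (33.3%, against 12.2%), all higher with PEGPH20. Asns, asparagine synthetase, read 38.4, 36.8 and 27.8 normalised read counts with vehicle and 69.6, 48.2, 62.4 and 64.9 with PEGPH20, without overlap (log2 difference 0.82 ± 0.19, limma's adjusted p = 0.279). The serine synthesis genes Phgdh and Psat1 had log2 differences of 1.18 ± 0.26 and 1.09 ± 0.28, and Chac1, a glutathione-degrading enzyme, 1.15 ± 0.40 on 2 to 18 reads per library. Psat1 overlapped between groups, since vehicle replicate 16, at 221, lay within the PEGPH20 range of 210 to 331. Without that tumour Psat1 passed limma's test (log2 difference 1.48, adjusted p = 0.0492), the 1 pass among 15 alternatives. Ppp1r15a, a phosphatase subunit that ends the stress response, went the other way without overlap, at 33.05 ± 1.58 with vehicle and 24.9 ± 3.77 with PEGPH20 (log2 difference -0.41 ± 0.19, limma's adjusted p = 0.436). Its exons share a few bases with Tulp2 on the other strand, so the value is uncertain. Atf4 mRNA read 1322 ± 34.0 and 1505 ± 104 (log2 difference 0.18 ± 0.09). Ddit3 (CHOP) and Trib3, stress genes downstream of ATF4, overlapped between groups and had log2 differences of -0.06 ± 0.19 and 0.33 ± 0.31, the latter 0.12 without vehicle replicate 33. Gdf15 and Asns had r = 0.71 and rho = 0.93 over the 7 libraries. Both genes were without overlap between groups, so the group difference is part of these values. Asns had r = 0.69 with Bax, 0.43 with Sesn2 and 0.35 with Bbc3. With Cdkn1a, Mdm2, Ccng1, Phlda3, Trp53inp1 and Zmat3 its r was negative, from -0.60 (Ccng1) to -0.25 (Phlda3). The motif TGATGNAA, a core of ATF4 response elements, was searched on both strands and was in 0 of the 12 promoter entries of 8 genes, against 3.97% of all promoter entries. With only 12 entries, 0 cannot be told apart from that share, and binding was not measured.

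Downstream of p21, genes repressed through the DREAM complex were read as well. All 12 had estimates above 0, where 54% of all tested genes did (median 0.38 against 0.03). None passed limma's test, and 3 (25%, against 12.2% of all tested genes) had an unadjusted p under 0.05: Cdc25c, Mcm5 and Top2a. The groups did not overlap in 1 of the 12 (8.33%, against 11.2% of all tested genes). Vehicle replicates 14 and 33 lay below every PEGPH20 tumour for all 12 genes. Vehicle replicate 16 lay above every PEGPH20 tumour for Ccnb1 (247 against at most 206 normalised read counts), Ccnb2, Ccna2, Cdk1, Plk1 and Chek1. For those genes the estimates above 0 rest on vehicle replicates 14 and 33. The 12 estimates come from the same tumours and are not independent. Cdc25c, the phosphatase that opens mitosis, read 21.3 ± 4.60 with vehicle and 35.7 ± 4.56 with PEGPH20, without overlap (limma's adjusted p = 0.322). The model Gm3550 lies opposite its exons, so the value is uncertain.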

How the data were processed

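QuantSeq 3′ FWD libraries took 200 ng RNA and were read for 75 nt, per the labels' protocols, with optional UMIs whose use in counting is not known here. The submitters' processing notes name GRCm38. Not given in the sources used here: aligner, counter and normalization tool. The deposited table holds 1 signal value per gene and library. From the values, the authors' signal is a read count divided by 1 size factor: 100% of values above 0 were whole multiples (tolerance 0.01) of the column's smallest, so reads were recovered. The main test was limma 3.58.1 (R 4.3.3) with intensity trend on log2(value + 1), which understates changes of low genes, for genes with a mean of at least 1, over all 7 libraries, with Benjamini-Hochberg adjustment over 17132 genes. edgeR 4.0.16 (quasi-likelihood, TMM) called 0 and DESeq2 1.42.0 called 64 genes on the recovered reads. Scripts were tested on simulated data. Libraries of a group differed beyond sampling noise (chi-square per degree of freedom of 7.10 at least), so none was counted as a copy; p-values measure the spread between these tumours.

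The set of members, the lists and the alternatives were chosen with earlier results of these data known. Named genes were the 10 members, Trp53, Mdm4, Ppm1d, Cdkn2a, the 4 wider targets per direction of smallest p with a mean of at least 10, Atf4, Ddit3, Trib3, Asns and the 5 genes closest to Cdkn1a. Atm, Gls2, Phgdh, Psat1, Chac1, Ppp1r15a, Cdc25c, Mcm5 and Top2a were named after their values were seen. Symbols matched 47224 rows; coordinates and overlaps come from GENCODE M21. Endothelial, macrophage, adipocyte and T cell markers were also summed, at 434 to 556, 2337 to 4392, 81.1 to 146 and 45.1 to 84.5 with vehicle and 288 to 503, 3198 to 3792, 51.8 to 154 and 65.2 to 114 with PEGPH20.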

Additional observations from a re-analysis of the deposited data

Results flagged for a closer look

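In the 4 PEGPH20 tumours, replicate 37 stood apart for Bbc3: its gap to the nearest tumour was 0.906 of the group's range, above Dixon's 95% critical value for 4 samples. The same tumour stood apart at the low end for Phlda3, with a gap of 0.83 of the range. Chance alone marks about 1 in 20 groups, and 10 genes were looked at.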

How the results depend on the processing

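Of 150 values of the 10 p53 targets under 15 alternatives, 137 kept their sign and their side of the threshold, 13 changed sign and 0 passed the threshold. The count of all genes past the threshold was 64 with DESeq2 in place of 0, and 0 to 3 with 1 library left out, the 3 without vehicle replicate 16 (H2-M2, Psat1 and Tmem158). The ATF4 list had 0 to 1 genes past the threshold with 1 library left out; without vehicle replicate 16 Psat1 passed (log2 difference 1.48, limma's adjusted p = 0.0492). The sign changes with 1 library left out were within ranges of -0.74 to 0.14 for Cdkn1a, -0.17 to 0.028 for Mdm2, -0.30 to 0.24 for Phlda3, -0.15 to 0.023 for Zmat3, -0.14 to 0.0026 for Mdm4 and -0.15 to 0.093 for Ddit3. Phlda3 was also -0.085 with edgeR, -0.085 with DESeq2, -0.026 with DESeq2 size factors and -0.031 with upper-quartile scaling. Without the 3 libraries of highest muscle marker sum, chosen after seeing the data, Trp53 was 0.026, Mdm4 0.041 and Ddit3 0.0085. The cause of these changes was not tested. Other scaling moved the median of all genes by under 0.1. With DESeq2 size factors 49.7% of all tested genes lay above 0, in place of 54%. The same scaling left 8 of the 12 ATF4 genes and all 12 DREAM genes above 0. No paired analysis was possible because the groups share no replicate number. Depth limits low genes: Gdf15 had 5 to 45 reads per library, Gls2 0 to 5 and Chac1 2 to 18. Every PEGPH20 library held more reads than every vehicle library, and the part of depth in these genes was not tested.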

Other observations

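Trp63 and Trp73 encode relatives of p53 that can act on the same promoters. Trp63, which marks squamous basal cells, had 14.8, 0.92 and 1.74 normalised read counts in the vehicle tumours 14, 16 and 33. The PEGPH20 tumours had 0 (replicate 11), 31.7 (12), 3.87 (19) and 0.73 (37). The highest library, PEGPH20 replicate 12 with 46 reads, had a keratinocyte marker sum of only 59.3, with Krt5 at 0, whereas vehicle replicate 14, next in order with 17 reads, had 1324. Trp73 had 1 read in each of 2 libraries and 0 in the other 5.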
